A study of Xenopus laevis with 42 samples.

Results

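The genes described are 7 that mark the path from a proneural cell to a young neuron in the frog Xenopus laevis: neurog2, neurod4, neurod1, myt1, elavl3, tubb3 and syt13. They were taken by symbol, as every row whose name without the final L or S is on that list, and 13 of 44962 rows were found. Xenopus laevis is allotetraploid, so most genes have an L copy and an S copy on its long and short subgenomes. All of these genes but syt13, which had an S row alone, were found as both copies.

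Messenger RNA of the D1 lineage was measured. D1 is the dorsal animal blastomere whose descendants enter the neural plate. In explants the D1 cell was taken out of the embryo and kept apart from it, and in progeny D1 stayed in place, was injected with a fluorescent dye, and the glowing descendants were later cut out of the intact embryo. No genotype, transgene or drug is named in the labels for either group, and the sources used here do not give the explants' culture conditions. Each tissue was sampled at 7 stages: 8-cell (Nieuwkoop-Faber stage 4, 2 hours 15 minutes), 16-cell (stage 5, 2 hours 45 minutes), 32-cell (stage 6, 3 hours), blastula (stage 8, 5 hours), gastrula (stage 11, 11 hours), early neurula (stage 14, 16 hours) and mid neurula (stage 17, 18 hours). The labels name 42 samples, 3 frogs in each of 14 groups. The values hold 1 column per group in which the 3 samples had already been combined by the authors, so no value has a replicate spread, no difference was tested, and no statement below has been set against variation between frogs.

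Neurons of the frog embryo arise from the neural plate in a sequence of gene activities. Neurogenins are proneural basic helix-loop-helix factors that commit a cell to the neuronal path and switch on Delta ligands, which signal through Notch to hold neighbouring cells back. They also switch on the related factors NeuroD4 and NeuroD1 and the zinc finger protein Myt1, which makes cells less sensitive to Notch. RNA-binding proteins such as Elavl3, neuronal tubulins and proteins of vesicle release are made as the cell differentiates.

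Levels are given in TPM, a measure of transcript abundance in which each column adds up to nearly the same total, as deposited. A row is called higher or lower, or is said to have risen or fallen, from a difference of 1 in log2(TPM + 1) upwards. This size is named 2-fold below, and on this scale changes of rows with low values are understated. Shares of all rows are over the 26351 rows that reached 1 TPM in at least 1 of the 14 columns. All 13 rows reached it, 5 of them through progeny alone (neurog2.L, neurod1.L, neurod1.S, neurod4.S and syt13.S). The explant and progeny values come from separately scaled tables whose columns sum to between 995987 and 999092.

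At gastrula most of these rows were less than 2-fold apart between explants and progeny, and at mid neurula nearly all were lower in explants. The neurod1, neurod4 and syt13 rows were too low in both tissues at gastrula to be 2-fold apart. The 13 rows summed to 48.4 TPM in explants and 43.6 TPM in progeny at gastrula. The sum was 42.5 TPM in explants and 126 TPM in progeny at early neurula, and 50.9 TPM in explants and 243 TPM in progeny at mid neurula. The explant sum therefore stayed near its gastrula value while the progeny sum grew at each step. The near-level explant sum held opposite moves of single genes. With copies summed, elavl3 changed by -1.42 and myt1 by 1.14 in explants from gastrula to early neurula (log2). In explants myt1 and elavl3 together made up 90.7%, 95.8% and 88.0% of the sum at gastrula, early neurula and mid neurula. At these stages elavl3 alone made up 63.9%, 25.7% and 28.2% in explants, and myt1 alone 26.8%, 70.1% and 59.8%. In progeny myt1 and elavl3 together made up 75.5%, 72.8% and 51.5%, as neurod4, neurod1, tubb3 and syt13 were added.

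**Figure D1:**
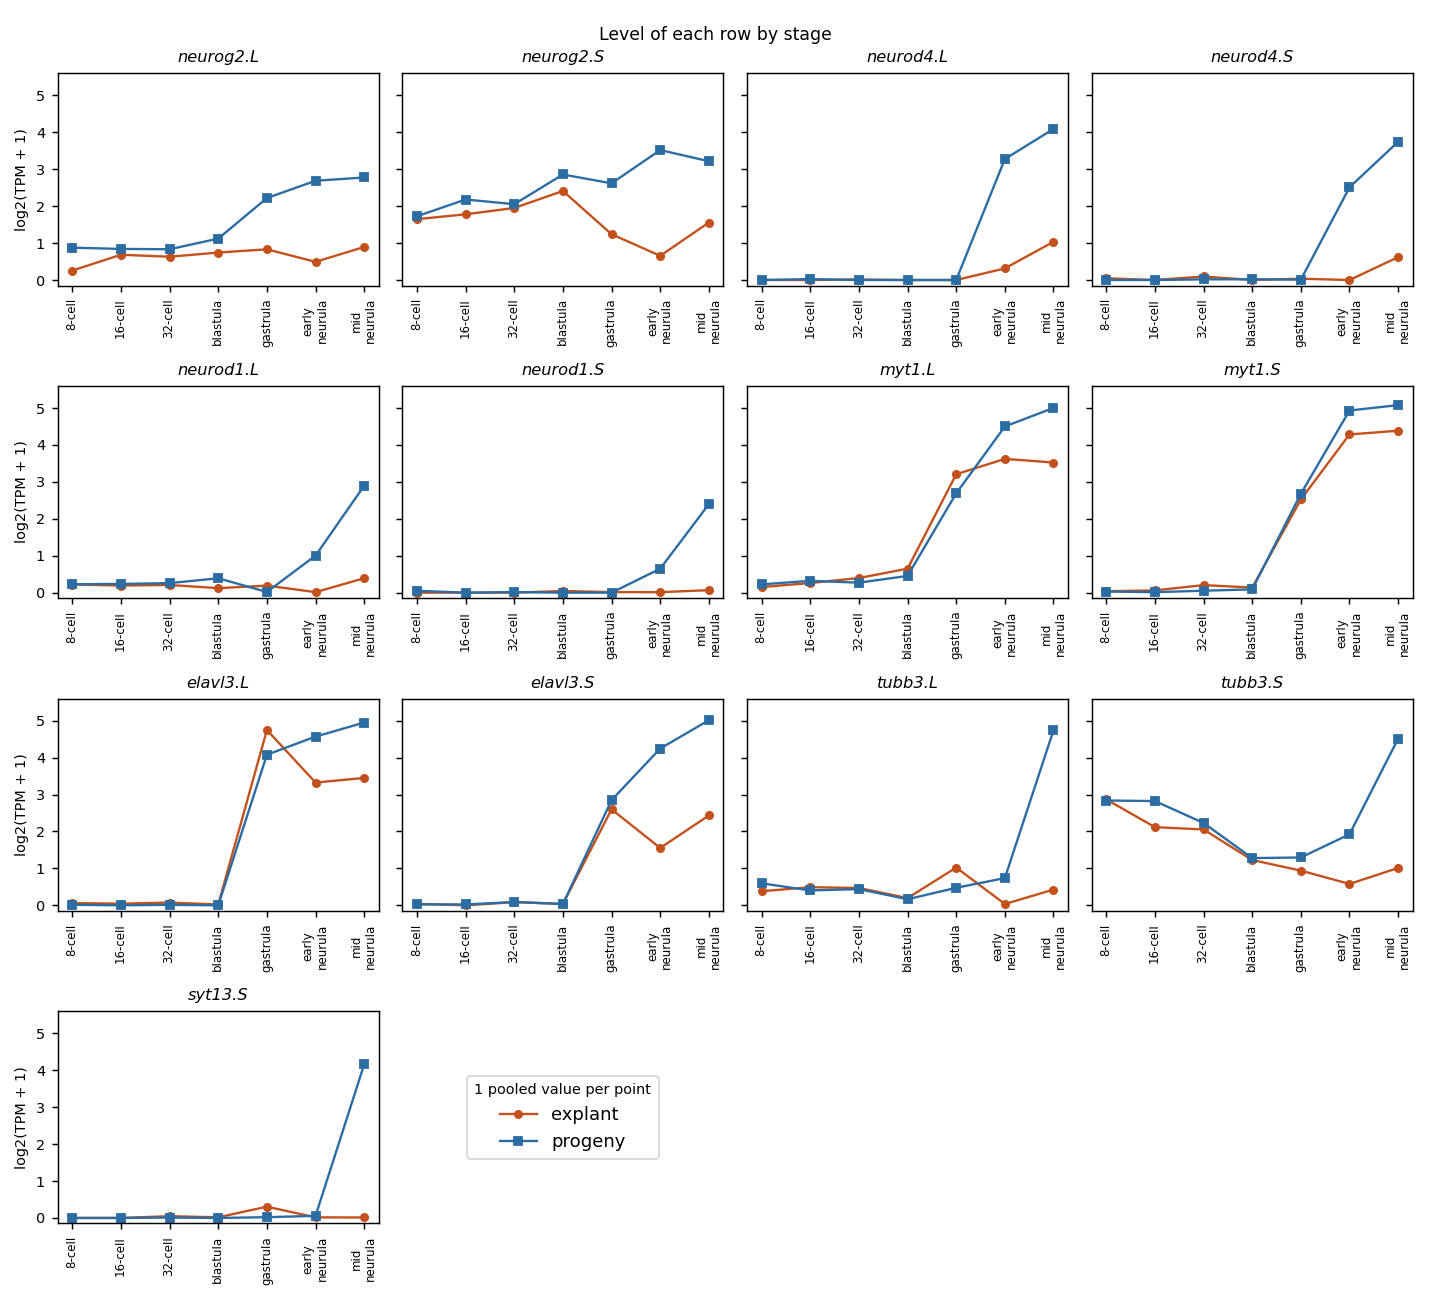
Level of each of the 13 rows as log2(TPM + 1) (vertical axis) at the 7 stages (horizontal axis), with circles for explants and squares for progeny, each point 1 pooled column. Both myt1 and both elavl3 rows rise together in the 2 tissues up to gastrula, and the lines of the other rows part at gastrula (neurog2) or at the neurula stages (neurod4, neurod1, tubb3, syt13).

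The proneural factor neurog2 was the only one of the 7 genes that was lower in explants at gastrula already. The rows of neurod1, neurod4 and syt13 were at or below 0.236 TPM in both tissues at gastrula, too low to be 2-fold apart. In explants neurog2.L had 0.195, 0.607, 0.548, 0.674, 0.779, 0.406 and 0.860 TPM from 8-cell to mid neurula. In progeny it had 0.835, 0.793, 0.782, 1.18, 3.66, 5.45 and 5.85 TPM over the same stages. The explant values thus never reached 1 TPM, while the progeny values climbed from blastula on, and the row rose between blastula and gastrula in progeny (log2 difference 1.098). That rise was under 2-fold with a pseudocount of 5 (0.49) and with the copies of neurog2 summed (0.22). The explant-minus-progeny log2 difference was -1.39 at gastrula, -2.20 in the early neurula and -1.88 in the mid neurula.

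The S copy of neurog2 was present before zygotic transcription is in full course. In explants neurog2.S had 2.13, 2.43, 2.87, 4.32, 1.36, 0.574 and 1.94 TPM from 8-cell to mid neurula. In progeny it had 2.31, 3.53, 3.15, 6.25, 5.14, 10.5 and 8.30 TPM. Both tissues were highest before gastrula at blastula, after which the explant value fell and the progeny value stayed within 2-fold. The fall in explants from blastula to gastrula was -1.17 on the log2 scale (-0.76 with median-of-ratios scaling, which is under 2-fold). Explants minus progeny, neurog2.S differed by -1.38 at gastrula, -2.86 in the early neurula and -1.66 in the mid neurula. Whether the early neurog2.S transcript is maternal was not tested.

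The factors that act after the neurogenins came on in progeny between gastrula and mid neurula. Up to gastrula no neurod4 value exceeded 0.0685 TPM in either tissue. In explants neurod4.L then had 0.244 TPM at early neurula and 1.05 TPM at mid neurula, against 8.69 and 16.0 TPM in progeny at these stages. In explants neurod4.S was listed at 0 at early neurula and had 0.536 TPM at mid neurula, against 4.70 and 12.4 TPM in progeny. Both copies were thus plainly present in progeny at early neurula, when the explants were at or close to 0. The explant-minus-progeny difference was -2.96 for neurod4.L and -2.51 for neurod4.S at early neurula, and -3.06 and -3.13 at mid neurula. Within explants neurod4.L at mid neurula was higher than at gastrula, where it was listed at 0 (log2 difference 1.03). With a pseudocount of 5 this difference was 0.27, under 2-fold.

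For neurod1 both rows rose by 2-fold in progeny in the last interval. In explants neurod1.L had 0.165, 0.143, 0.155, 0.0883, 0.141, 0.0102 and 0.311 TPM from 8-cell to mid neurula. The progeny columns held 0.171, 0.179, 0.196, 0.310, 0.0126, 1.01 and 6.45 TPM. From gastrula to early neurula neurod1.L was 0.99 higher in progeny, just under 2-fold, and past it at 1.07 with median-of-ratios scaling, 1.35 with copies summed and 3.30 with a pseudocount of 0.1. The explant-minus-progeny difference of neurod1.L was -0.99 at early neurula, just under 2-fold (-1.07 with median-of-ratios scaling), and -2.51 at mid neurula. The copy neurod1.S did not exceed 0.0476 TPM in any explant column, and in progeny it had 0.568 TPM at early neurula and 4.26 TPM at mid neurula (mid neurula log2 difference -2.33). It was the 1 row of the 13 that did not reach 5 TPM in any column. From early to mid neurula neurod1.L rose by 1.89 and neurod1.S by 1.75 on the log2 scale in progeny. In explants their differences over that interval were 0.38 and 0.05, under 2-fold.

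The gene with the smallest difference between the tissues at mid neurula was myt1, which encodes a zinc finger factor that promotes neuronal differentiation. It was switched on in both tissues between blastula and gastrula. In explants myt1.L had 0.569 TPM at blastula, 8.23 at gastrula, 11.3 in the early neurula and 10.5 in the mid neurula. In progeny it had 0.370, 5.45, 21.6 and 31.1 TPM at these stages. The rise of myt1.L into gastrula was 2.56 in explants and 2.24 in progeny (log2), and its explant-minus-progeny difference was 0.52 at gastrula, -0.88 in the early neurula and -1.48 in the mid neurula. After gastrula the explant value stayed within 2-fold while the progeny value rose.

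The S copy rose after gastrula in explants too. In explants myt1.S had 0.101 TPM at blastula, 4.75 at gastrula, 18.5 in the early neurula and 19.9 in the mid neurula. The progeny values were 0.0636, 5.396, 29.6 and 32.8 TPM. Between gastrula and early neurula myt1.S rose by 1.76 in explants and by 2.26 in progeny on the log2 scale. It was the only one of the 13 rows that rose in explants in that interval. Between explants and progeny (explant minus progeny) myt1.S differed by -0.15 at gastrula, -0.65 in the early neurula and -0.69 in the mid neurula, below 2-fold at all 3 stages. With the copies of each gene summed, the mid neurula difference of myt1 was -1.05, past 2-fold.

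The RNA-binding protein gene elavl3, which encodes HuC, a widely used marker of young neurons, was the most abundant of the 7 genes at gastrula. In explants elavl3.L had 0.0155 TPM at blastula, 25.9 at gastrula, 9.02 in the early neurula and 9.93 in the mid neurula. In progeny it was listed at 0 at blastula and had 15.9 TPM at gastrula, 22.7 in the early neurula and 29.9 in the mid neurula. The explant column was the higher of the pair at gastrula and the lower at both neurula stages. The explant-minus-progeny difference of elavl3.L was 0.67 at gastrula, -1.24 in the early neurula and -1.50 in the mid neurula. From gastrula to early neurula elavl3.L fell by 1.42 on the log2 scale in explants, and its progeny value was 0.49 higher, under 2-fold.

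The S copy of elavl3 moved in opposite directions in the tissues after gastrula. In explants elavl3.S had 0.0286 TPM at blastula, 5.06 at gastrula, 1.93 in the early neurula and 4.40 in the mid neurula. The progeny values were 0.0237, 6.20, 18.0 and 31.3 TPM. From gastrula to early neurula elavl3.S fell by 1.05 in explants and rose by 1.40 in progeny on the log2 scale. The explant fall was -0.84 with median-of-ratios scaling, under 2-fold. Explant minus progeny, elavl3.S differed by -0.25 at gastrula, -2.69 in the early neurula and -2.58 in the mid neurula.

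The neuronal beta-tubulin gene tubb3 and the synaptotagmin gene syt13 rose in progeny between early and mid neurula, as neurod1 did, and had the largest differences between the tissues at mid neurula. In explants tubb3.L had 0.302, 0.405, 0.385, 0.145, 1.03, 0.0246 and 0.343 TPM from 8-cell to mid neurula. In progeny it had 0.511, 0.323, 0.356, 0.121, 0.390, 0.667 and 25.7 TPM. A single progeny column, mid neurula, stood far above the other 13. The explant-minus-progeny difference of tubb3.L was 0.55 at gastrula, -0.70 in the early neurula and -4.31 in the mid neurula, and the last placed it at rank 97 from the lowest of the 26351 rows.

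The S copy of tubb3 was there from the first stage on. In explants tubb3.S had 6.30, 3.34, 3.15, 1.34, 0.918, 0.494 and 1.02 TPM from 8-cell to mid neurula. The progeny columns held 6.15, 6.07, 3.69, 1.43, 1.45, 2.79 and 21.9 TPM. Both tissues thus started alike and fell between 8-cell and blastula, by 1.64 in explants and by 1.56 in progeny on the log2 scale, before progeny alone rose at mid neurula. For tubb3.S the explant-minus-progeny difference was -0.36 at gastrula, -1.34 in the early neurula and -3.50 in the mid neurula.

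Synaptotagmins are vesicle proteins, and some but not all of them are calcium sensors of membrane fusion. In explants syt13.S was listed at 0 at 8-cell and 16-cell and then had 0.0337, 0.0123, 0.236, 0.0115 and 0.00936 TPM from 32-cell to mid neurula. In progeny it was listed at 0 at 8-cell, 16-cell and blastula and had 0.00796 TPM at 32-cell, 0.0146 at gastrula, 0.0401 in the early neurula and 16.9 in the mid neurula. The row was therefore at or below 0.236 TPM in 13 of the 14 columns. Its explant-minus-progeny difference was 0.28 at gastrula, -0.04 in the early neurula and -4.15 in the mid neurula, rank 111 from the lowest.

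Set against all rows, the 13 rows were less than 2-fold apart between the tissues up to blastula and were mostly lower in explants at the neurula stages. At 8-cell, 16-cell, 32-cell and blastula 0 of the 13 rows were 2-fold apart in either direction, where 6.06%, 2.56%, 2.96% and 2.9% of all rows were. Their log2 differences at these 4 stages lay between -0.71 (tubb3.S at 16-cell) and 0.20 (myt1.L at blastula). Apart from tubb3.S and neurog2.S, no row exceeded 1.18 TPM in these 8 columns, and 23 of the 88 values were listed at 0, so a difference between the tissues at these stages could hardly have been seen for the other 11 rows. At gastrula 2 of 13 rows, both of neurog2, were lower in explants, against a background of 3.42%, and 0 were higher, against 2.2%. The neurod1, neurod4 and syt13 rows, at or below 0.236 TPM in both tissues at gastrula, could not have been 2-fold apart. The row tubb3.L, with 1.03 TPM in explants and 0.390 TPM in progeny, could hardly have been. With a pseudocount of 5 the differences of neurog2 at gastrula were -0.58 and -0.67, under 2-fold.

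At early neurula 7 of 13 rows were lower in explants, where 12.9% of all rows were, and 0 were higher, where 10.9% were. These 7 were both copies of neurog2, neurod4 and elavl3, and tubb3.S. With a pseudocount of 5 the count was 3. With a pseudocount of 0.1, neurod1.L (-3.33), neurod1.S (-2.61) and tubb3.L (-2.62) were past 2-fold as well. The median log2 difference was -1.24 over the 13 rows and -0.11 over all rows.

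At mid neurula 12 of 13 rows were lower in explants, against 13.6% of all rows, and 0 were higher, against 12%. The exception was myt1.S. With a pseudocount of 5, neurog2.L (-0.89), neurog2.S (-0.94) and neurod1.S (-0.88) were under 2-fold too. All 13 explant values lay below their progeny values, and the median difference was -2.51 over the 13 rows and -0.13 over all rows. Among the 12 lower rows are neurog2.L, neurod1.L, neurod1.S, neurod4.S and syt13.S, which reached 1 TPM through progeny alone. Rows that enter in this way can pull such a count and median toward lower in explants. The same holds for the other comparisons between the tissues. The remaining lower rows were neurog2.S, neurod4.L, myt1.L and both copies of elavl3 and tubb3. Bulk values of this kind cannot tell apart fewer cells that express a gene and less RNA of it per cell.

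**Figure D2:**
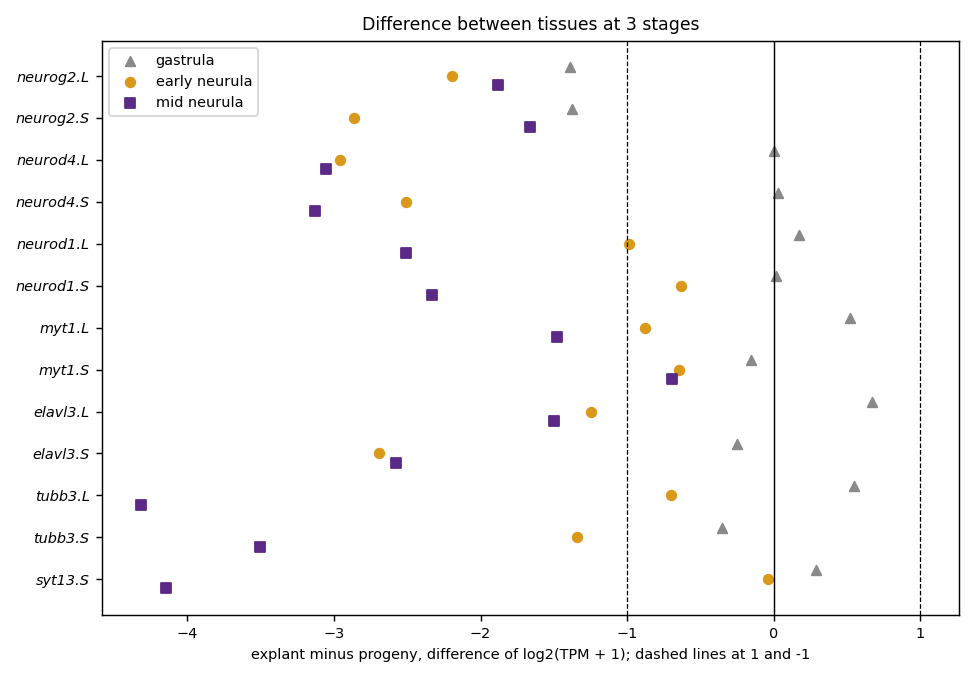
Explant-minus-progeny difference of log2(TPM + 1) (horizontal axis) for each of the 13 rows (vertical axis) at gastrula (triangles), early neurula (circles) and mid neurula (squares), with dashed lines at 1 and -1. At gastrula the neurog2 rows alone lie beyond -1, and at mid neurula every row but myt1.S does, down to -4.31 for tubb3.L.

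The explants at mid neurula were also set beside the progeny 1 stage earlier. Of the 13 rows 6 were lower in the mid neurula explants than in the early neurula progeny, where 11.3% of all rows were, and 0 were higher, where 15.8% were. The 6 were both copies of neurog2 (-1.79 and -1.96), neurod4 (-2.24 and -1.89) and elavl3 (-1.12 and -1.81). The count was 3 with a pseudocount of 5 and 10 with a pseudocount of 0.1. All 13 log2 differences were below 0, with a median of -0.98 over the 13 rows and -0.05 over all rows. This comparison shares its columns with those at matched stages and adds no separate evidence.

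Within each tissue the rows came on in different intervals. Between 8-cell and blastula tubb3.S fell in both tissues (1 of 13 rows each, backgrounds 1.98% in explants and 1.53% in progeny), and neurog2.S rose in progeny by 1.13 on the log2 scale (1 of 13, background 12.7%; 0.68 with median-of-ratios scaling, under 2-fold). In explants 0 of 13 rose in that interval, against 24.6% of all rows. Between blastula and gastrula 4 of 13 rows rose in explants (background 14.7%) and 5 in progeny (background 16.1%). The 4 were both copies of myt1 and elavl3, and progeny added neurog2.L, though with its 2 copies summed neurog2 was under 2-fold (0.22). In explants 1 row fell, neurog2.S (background 27.9%), and in progeny 0 did (background 29.5%). A row under 1 TPM at the start of an interval cannot fall by 2-fold on this scale. At 8-cell 2 of the 13 rows were at 1 TPM or more in each tissue, and at blastula 2 in explants and 3 in progeny. The counts of falling rows therefore cannot be read against the shares of all rows.

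Between gastrula and early neurula 1 of 13 rows rose in explants (background 16.1%), myt1.S, and 2 fell (background 20.5%), both copies of elavl3. In progeny 5 rose (background 17.7%), both copies of neurod4 and myt1 and elavl3.S, and 0 fell (background 15.7%). Between early and mid neurula 0 of 13 rows rose or fell by 2-fold in explants (backgrounds 7.49% and 1.24%). Of the 13 explant differences, 11 were nevertheless above 0, with a median of 0.39 beside 0.12 over all rows. With a pseudocount of 0.1, 6 rows rose in explants. The progeny differences were above 0 for 12 rows, with a median of 0.82 beside 0.10 over all rows. In progeny 6 rose (background 7.77%), both copies of neurod1 and tubb3, neurod4.S and syt13.S, and 0 fell (background 1.48%). Rows at 1 TPM or more, which alone could fall by 2-fold, numbered 6 in explants and 7 in progeny at gastrula. At early neurula they numbered 4 and 10.

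Over the whole span from gastrula to mid neurula 2 of 13 rows rose in explants (background 23.1%), neurod4.L and myt1.S, and 1 fell (background 20%), elavl3.L. With a pseudocount of 5, neurod4.L was under 2-fold (0.27). In progeny 10 rose (background 26.6%) and 0 fell (background 15.8%), the other 3 being both copies of neurog2 and elavl3.L. The change from gastrula to mid neurula was lower in explants than in progeny by at least 1 on the log2 scale for 10 of 13 rows (background 15.5%) and higher for 0 (background 12.4%). The difference of the changes ran from -4.86 for tubb3.L to -0.28 for neurog2.S, with a median of -2.34 over the 13 rows and -0.19 over all rows. The 3 rows under 2-fold by this measure were neurog2.L, neurog2.S and myt1.S. The neurog2 rows, already lower in explants at gastrula, had differences of -0.49 and -0.28 by this measure.

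The share of a gene's level that came from its L copy differed between genes and moved with stage. The copies resemble each other in sequence and the sources used here do not say how reads were assigned, so each copy's value can hold reads of the other. For elavl3 the L copy made up 83.6%, 82.3% and 69.3% of the sum of both copies in explants at gastrula, early neurula and mid neurula. In progeny it made up 71.9%, 55.9% and 48.9%. The L share was thus larger in explants at each of these stages and smaller at later stages in both tissues. For tubb3 in progeny it was 21.1%, 19.3% and 54.1% at these stages, the gain at mid neurula coming from tubb3.L. For myt1 the L share was 63.4%, 38.0% and 34.5% in explants and 50.2%, 42.3% and 48.7% in progeny. For neurod4 it was 64.9% at early neurula and 56.4% at mid neurula in progeny, and for neurod1 63.9% and 60.2%. For neurog2 the S copy was the larger in all 6 of these columns, with an L share of 36.4%, 41.4% and 30.7% in explants and 41.6%, 34.2% and 41.4% in progeny.

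**Figure D3:**
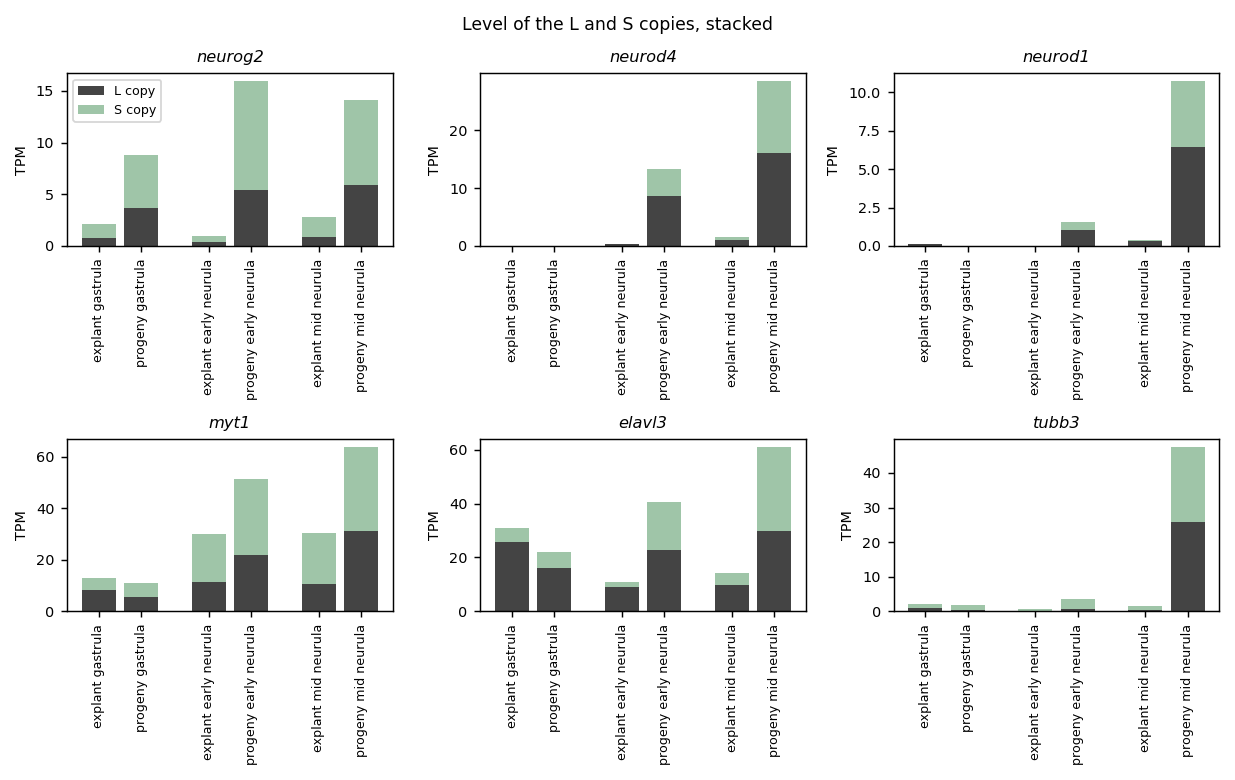
TPM (vertical axis, scaled to each gene) of the L copy (dark) and the S copy (light), stacked, for the 6 genes with both copies, in explants and progeny at gastrula, early neurula and mid neurula. The elavl3 bar is taller in explants at gastrula, 30.9 TPM against 22.1 TPM in progeny, and shorter at both neurula stages, while neurod4, neurod1 and tubb3 are tall in progeny at mid neurula alone or at both neurula stages.

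Likeness between rows was measured as Pearson's r of log2(TPM + 1) over the 14 columns, which share tissue, stage and scaling, and is given as a description. Among the 13 rows the highest r were 0.992 between the copies of neurod4, 0.990 between those of neurod1, 0.987 between tubb3.L and syt13.S and 0.986 between the copies of myt1. The copies of elavl3 had 0.946, those of neurog2 0.80 and those of tubb3 0.71, the last pair differing by the early level of tubb3.S. The lowest r was -0.11, between elavl3.L and tubb3.S. For tubb3.L and syt13.S, each far higher in the mid neurula progeny column than in any other, Spearman's rho was 0.51.

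Across the 16398 rows with a symbol that reached 5 TPM, the row most like the mean profile of the 12 rows that reached 5 TPM was sox1.L, a factor of neural progenitors, with r of 0.995. It had 0.517 TPM in explants and 4.56 TPM in progeny at early neurula, and 1.38 and 10.05 TPM at mid neurula. It was followed by apcdd1.S and dmrta2.S, both with 0.990, ankrd6.L, wif1.L, bcl2l10.S, tfap2b.S, egr2.L, ube2ql1.S and fam198a.L, the last with 0.984. Ranked by Spearman's rho of TPM, 0 of these 10 rows were again among the first 10.

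Rows of single members had different neighbours. The rows most like elavl3.L were sfrp2.S, aplnr.S and dll1.L (0.995 to 0.993), and those most like elavl3.S were prph.L, nrsn1.S and nova2.L (0.995 to 0.993), of which prph encodes the neuronal intermediate filament peripherin. Those most like myt1.L were lrrn1.S, cdknx.L and zc3h12c.L (0.995 to 0.994), and those most like myt1.S were sdhaf2.S, prelid1.L and ubap2.S (all 0.997). For tubb3.L they included syt13.S (0.987) and xirp1.S (0.979), for tubb3.S they were vamp2.L, tpm1.S and tpm1.L (0.923 to 0.864), and for syt13.S xepsin.S, myl4.S and synpo2l.L (0.995 to 0.987). For the neurod rows some neighbours, the mypn, pgam2, klhl40, klhl41 and actn3 rows, are genes of striated muscle. The neighbours were mypn.L, pgam2.L and klhl40.S for neurod1.L (0.992 to 0.991) and nkx2-4.S, actn3.S and gfra3.L for neurod4.L (0.999 to 0.998). For neurod4.S they were klhl41.S, klhl40.L and thbs4.L (all 0.999). For neurog2.L they were tn3.L, dhh.L and slc23a2.L (0.961 to 0.960), and for neurog2.S mef2d.S, lonrf3.L and zmiz1.L (0.961 to 0.929). Muscle genes came on in progeny over the same stages, so with 14 columns a high r groups genes by when and in which tissue they appeared. Spearman's rho of the neighbours with their member ran from 0.27 (pgam2.L with neurod1.L) to 0.96 (lonrf3.L with neurog2.S).

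Other genes of the pathway were read from lists put together by function. Of all rows, 2.2% were higher and 3.42% lower in explants at gastrula. These shares were 10.9% and 12.9% at early neurula, and 12% and 13.6% at mid neurula. They are over rows that reached 1 TPM, and not every row of each list did. Among 29 rows of other neurogenic factors, 1 was higher and 1 lower in explants at gastrula, 1 higher and 9 lower at early neurula, and 0 higher and 14 lower at mid neurula. Their median difference at mid neurula, over the 18 rows that reached 1 TPM, was -1.34, beside -0.13 over all rows. Rows could reach 1 TPM through either tissue, and at mid neurula 8 of the 29 were at 1 TPM in explants and 16 in progeny. Rows that reached it through progeny alone can pull such a median down by the way they were chosen. The same holds for the medians of the lists below. Of the other neurogenins, neurog1.L had 0.661 TPM in explants and 2.76 TPM in progeny at gastrula (-1.18), 0.974 and 17.6 TPM at early neurula (-3.23), and 4.29 and 23.4 TPM at mid neurula (-2.21). The row neurog3.S had 2.32 TPM in explants and 5.22 TPM in progeny at gastrula (-0.91), under 2-fold, 0.444 and 6.02 TPM at early neurula (-2.28), and 0.999 and 3.85 TPM at mid neurula (-1.28). The row neurog3.L was under 2-fold at these stages (-0.24, -0.86 and -0.29).

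At mid neurula nhlh1.L, a helix-loop-helix factor of young neurons, had 0.761 TPM in explants and 15.8 TPM in progeny (-3.25), and ebf2.L, a factor that follows neurogenin, had 1.16 and 13.3 TPM (-2.73). The zinc finger factor insm1.S was the neurogenic row higher in explants at gastrula, with 16.9 TPM in explants and 6.07 TPM in progeny (1.34). At early neurula it had 5.72 TPM in explants and 10.8 TPM in progeny, less than 2-fold apart.

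Factors that define kinds of neurons, 41 rows, were lower in explants in 3 rows at gastrula, 16 in the early neurula and 19 in the mid neurula, and higher in 0, 0 and 2. At mid neurula mnx1.L, a motor neuron factor, had 0.325 TPM in explants and 7.51 TPM in progeny (-2.68), and tlx3.S, a factor of sensory and dorsal neurons, had 0.526 and 5.33 TPM (-2.05). The interneuron progenitor factor dbx1.S had 4.08 and 29.5 TPM (-2.59). Over the 34 rows that reached 1 TPM the mid neurula median was -1.15.

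Genes of the neuronal cytoskeleton and of neuronal RNA binding, 41 rows, were higher in explants in 1 and lower in 1 at gastrula, higher in 1 and lower in 8 at early neurula, and higher in 0 and lower in 17 at mid neurula, with a mid neurula median of -1.59 over 27 rows. The row tubb2b.L, the tubulin used in the frog as a marker of primary neurons, had 22.03 TPM in explants and 12.5 TPM in progeny at gastrula (0.77), 22.6 and 80.6 TPM at early neurula (-1.79), and 51.7 and 158 TPM at mid neurula (-1.59). Like elavl3.L it was the higher in explants at gastrula and the lower later. The copy tubb2b.S had 7.47 TPM in explants and 138 TPM in progeny at mid neurula (-4.04), and prph.S had 0.871 and 30.8 TPM (-4.09).

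Of 37 rows of synaptic and transmitter genes 0 were 2-fold apart in either direction at gastrula. The rows of the list that reached 1 TPM numbered 23. Of these, 1 was higher and 3 were lower in explants at early neurula, beside 10.9% and 12.9% of all rows. At mid neurula 2 of these 23 rows were higher and 13 lower, beside 12% and 13.6% of all rows, with a median of -1.13. The row snap25.L, of the vesicle fusion machinery, had 0.391 TPM in explants and 12.8 TPM in progeny at early neurula (-3.31) and 1.66 and 18.5 TPM at mid neurula (-2.87). The row rab3a.S, a vesicle GTPase, went the other way, with 33.8 TPM in explants and 5.94 TPM in progeny at early neurula (2.32), and at blastula it already had 23.8 TPM in explants and 22.1 TPM in progeny.

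The Notch pathway, through which cells that express neurogenins restrain their neighbours, was near equal at gastrula in its Delta ligand. At that stage dll1.L had 46.2 TPM in explants and 47.2 TPM in progeny and dll1.S 60.8 and 61.2 TPM. At mid neurula dll1.L had 19.7 and 55.2 TPM (-1.44) and dll1.S 30.5 and 57.7 TPM (-0.90). Of the 27 rows of the list, 3 were lower in explants at gastrula, 17 in the early neurula and 18 in the mid neurula, and 0, 0 and 1 were higher. The mid neurula median was -1.20. The Notch target hes5.2.L had 17.1 TPM in explants and 19.6 TPM in progeny at gastrula, 1.21 and 28.2 TPM at early neurula (-3.72), and 3.93 and 38.4 TPM at mid neurula (-2.998).

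Genes that restrain differentiation or keep progenitors, 18 rows, were split, with 3 higher and 2 lower in explants at gastrula, 4 and 10 at early neurula and 2 and 8 at mid neurula, when the median was -0.41. The repressor gene rest.L, whose product silences neuronal genes in other cells, had 8.17 TPM in explants and 8.27 TPM in progeny at gastrula, 11.2 and 12.6 TPM at early neurula and 11.2 and 13.1 TPM at mid neurula. The row id2.S, which encodes an inhibitor of helix-loop-helix factors, had 145.0 TPM in explants and 31.2 TPM in progeny at gastrula (2.18) and 429.9 and 64.4 TPM at mid neurula (2.72). Among 13 rows of cell cycle exit, 2 were higher and 0 lower in explants at gastrula, 2 and 4 at early neurula and 2 and 3 at mid neurula, when the median was -0.20. At mid neurula these are 15.4% higher and 23.1% lower, not far from the 12% and 13.6% of all rows. The cell cycle inhibitor cdknx.L had 68.2 TPM in explants and 49.1 TPM in progeny at gastrula and 93.3 and 342 TPM at mid neurula (-1.86), while cdknx.S had 250.0 and 288 TPM at mid neurula (-0.20).

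**Figure D4:**
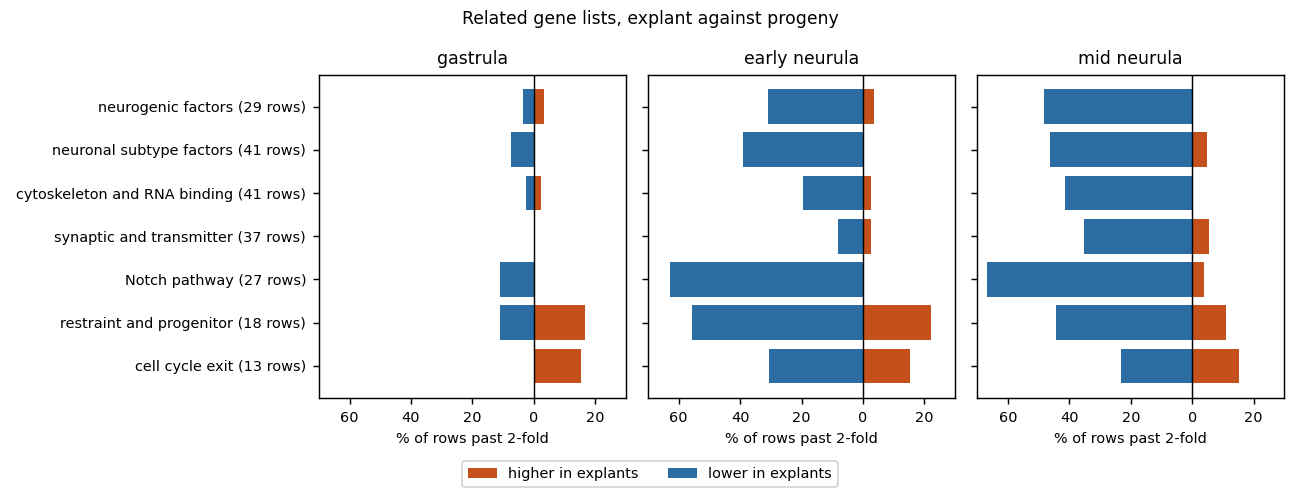
Percent of the rows of 7 related gene lists (horizontal axis, lower in explants to the left of 0 and higher to the right) that were at least 2-fold apart between explants and progeny at gastrula, early neurula and mid neurula. The bars to the left lengthen from gastrula to the neurula stages for the neuronal and Notch lists, reaching 18 of 27 rows for the Notch list at mid neurula. Each percent is over every row of a list, also rows that never reached 1 TPM. The bars are therefore not on the same base as the shares of all rows in the text.

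Markers of the tissues a dissected or isolated D1 lineage could hold also differed between explants and progeny. Of all rows, 10.9% were higher and 12.9% lower in explants at early neurula. The share of all rows that were lower was 3.42% at gastrula and 13.6% at mid neurula. Neural plate markers were present in both tissues and lower in explants, with 13 of 13 rows lower at early neurula and 12 at mid neurula. Their summed level was 353 TPM in explants and 1658 TPM in progeny at early neurula and 431 and 1328 TPM at mid neurula. The sum was already 1148 TPM in explants and 1327 TPM in progeny at 8-cell, so by itself it does not measure neural plate. The factor sox2.S had 137 TPM in explants and 175 TPM in progeny at gastrula, 74.7 and 328 TPM at early neurula, and 100.2 and 209.6 TPM at mid neurula. Epidermal markers summed to 9340 TPM in explants and 1296 TPM in progeny at early neurula, with 11 of 14 rows higher, and those of ciliated cells and ionocytes to 1134 and 76.4 TPM, with 9 of 9 rows higher. Muscle markers summed to 16.7 TPM in explants and 5188 TPM in progeny at early neurula, with 12 of 12 rows lower, and neural crest markers to 16.2 and 394 TPM, with 12 of 12 lower. Notochord and organizer markers summed to 201 TPM in explants and 782 TPM in progeny at early neurula, with 11 of 13 rows lower, and endoderm markers to 122 and 680 TPM, with 6 of 10 lower. At mid neurula 53.8% of the notochord and organizer rows were lower in explants and 15.4% higher. At that stage 78.6% of epidermal rows and 100% of ciliated cell and ionocyte rows were higher, beside 12% of all rows. Muscle and neural crest rows were then lower in 100% of cases each. At gastrula 57.1% of epidermal rows and 55.6% of ciliated cell and ionocyte rows were already higher in explants, beside 2.2% of all rows. Lower in explants at gastrula were 53.8% of notochord and organizer rows, of which 7.69% were higher. So were 33.3% each of muscle and neural crest rows and 15.4% of neural plate rows. Endoderm rows lower in explants numbered 9 of 10 at gastrula (median -2.03) and 2 of 10 at mid neurula (median -0.25). Cement gland markers, of which muc2.L and muc2.S were listed at 0 in both tissues at mid neurula, summed to 2236 TPM in explants and 2173 TPM in progeny at early neurula, when 3 of 7 rows were lower in explants (median -1.19 over 5 rows). None of the rows of the other marker lists named here was listed at 0 at either neurula stage. The part of these tissue makeups in the differences of the 13 rows was not tested.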

How the data were processed

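Messenger RNA of 42 samples was sequenced, and the authors deposited 2 tables, explant and progeny, with 44962 rows and 7 columns each, 1 per stage. The authors made the values as TPM, per the file headers. TopHat, Bowtie2, Cufflinks and Cuffdiff are named in the submitters' processing notes. The sources used here do not give their versions, the genome build, the annotation or how the 3 samples of a group were combined. TPM keeps no read numbers, so the depth behind each value is unknown and no counting interval is printed. Per column 28521 to 36651 rows exceeded 0. Groups follow the sample titles (some descriptions abbreviate the last stage differently).

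From the deposited TPM, differences of log2(TPM + 1) were computed with Python 3.11.15, numpy 2.4.6 and pandas 2.3.3, and figures were drawn with matplotlib 3.10.9. With 1 combined column per group no test was possible, and a rule of size, a difference of at least 1, took its place. Rows under 1 TPM in all 14 columns were left out of the shares and medians over all rows. The code was tested on simulated data. The 13 rows and the gene lists were chosen with earlier results of these data known. Named in the text are all 13 rows and, per list and comparison, rows among the 4 largest differences past 2-fold with at least 5 TPM in the higher column, together with a set of core genes such as dll1, rest, sox2 and tubb2b. The rows insm1.S, hes5.2.L and rab3a.S are also given at stages where that rule does not reach them, chosen after their values were seen. Of the 13 row names 11 match a RefSeq symbol (assembly Xenopus_laevis_v10.1), and elavl3.S and tubb3.S do not. Alternatives were pseudocounts of 0.1 and 5, median-of-ratios scaling, summed copies, no filter or one at 5 TPM, and Spearman's rho. Listed symbols with no row were nhlh2, hes6, prdm12, cntn2, syt1, syn1, gad1, hes5.4 to hes5.10, mfng, id1, cdkn1c, mcidas, noto and sox17b, and these were not analysed here. Some rows that the naming rule reached are not reported here.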

Additional observations from a re-analysis of the deposited data

Results flagged for a closer look

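The gene elavl3.S moved in opposite directions in the tissues between gastrula and early neurula. Its change in log2(TPM + 1) was -1.047 in explants and 1.3974 in progeny, with 1.93 TPM at early neurula and 5.06 TPM at gastrula in explants, and 18.0 TPM at early neurula and 6.20 TPM at gastrula in progeny. Each is a single pooled column and the difference between the changes was not tested. The explant change was -0.84 with median-of-ratios scaling and -0.54 with a pseudocount of 5, in the same direction but under 2-fold. The sum of both elavl3 copies changed by -1.42 in explants and by 0.85 in progeny.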

How the results depend on the processing

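No paired analysis was possible because the tables hold 1 pooled column per group, and for the same reason no replicate could be left out. No difference past 2-fold turned its direction in any of the 4 alternatives run on single values. Smaller differences turned sign in 24 cases with copies summed and in 11 with median-of-ratios scaling, the largest of them at 0.356 in size. At gastrula the explant-minus-progeny differences of myt1.S (-0.15), elavl3.S (-0.25) and tubb3.S (-0.36) lie against 0.24, 0.47 and 0.052 for the summed copies. Of 247 values, a pseudocount of 0.1 brought 36 past 2-fold, a pseudocount of 5 took 27 below it, median-of-ratios scaling moved 3 each way, and summing copies moved 18 past it and 3 below. Leaving out the filter, or setting it at 5 TPM, moved no count of members by over 1.5 times. Ranking by Spearman's rho kept 0 of the 10 rows most like the members.

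Counts of members changed as follows. With a pseudocount of 0.1, explants had 2 rows higher from 8-cell to blastula, 2 higher and 6 lower from gastrula to early neurula, 6 higher from early to mid neurula and 3 lower from gastrula to mid neurula. Progeny had 2 lower from 8-cell to blastula, 1 lower from blastula to gastrula and 8 higher from gastrula to early neurula. Against progeny, explants had 1 row lower at 8-cell, 1 lower at blastula, 3 higher at gastrula and, at mid neurula against early neurula progeny, 10 lower. With a pseudocount of 5, explants had 0 lower from 8-cell to blastula, 0 lower from blastula to gastrula, 1 lower from gastrula to early neurula and 1 higher from gastrula to mid neurula. Progeny had 0 higher and 0 lower from 8-cell to blastula, 3 higher from blastula to gastrula and 3 higher from early to mid neurula. Against progeny, explants had 0 lower at gastrula, 3 lower at early neurula and, at mid neurula against early neurula progeny, 3 lower. With median-of-ratios scaling, progeny had 0 higher from 8-cell to blastula, and explants had 0 lower from blastula to gastrula and 1 lower from gastrula to early neurula. With copies summed, which leaves 7 genes, explants had 2 higher and 0 lower from blastula to gastrula, 1 lower from gastrula to early neurula and 1 higher from early to mid neurula. Progeny had 2, 3 and 6 higher from blastula to gastrula, from gastrula to early neurula and from gastrula to mid neurula. Against progeny, explants had 1 gene lower at gastrula, 7 of 7 lower at mid neurula, 3 lower at mid neurula against early neurula progeny, and 6 with a lower change from gastrula to mid neurula. The pseudocounts act on rows with low values and summing reduces the number of features by construction. For the scaling the cause was not tested.

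Median-of-ratios scaling shifted the median of all rows by over 0.1 on the log2 scale in these comparisons: -0.27 in explants and -0.19 in progeny from 8-cell to blastula, 0.22 in explants and 0.26 in progeny from blastula to gastrula, 0.14 in explants from gastrula to early neurula, -0.12 in explants and -0.13 in progeny from early to mid neurula, -0.10 in progeny from gastrula to mid neurula, and 0.17 in the difference of changes. Between tissues at matched stages the shift was at most 0.095. Depth is unknown, so values near 0 cannot be placed against counting error.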

Other observations

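The rows syt13-like.L and syt13-like.S share part of their name with syt13 but lie outside the rule. At mid neurula they were higher in explants, where syt13.S was lower. At gastrula syt13.S (0.28) and syt13-like.L (0.30) were both under 2-fold. They were chosen after their values were seen. At early neurula syt13-like.L had 28.8 TPM in explants and 3.67 TPM in progeny (log2 difference 2.67), and at mid neurula 40.5 TPM in explants and 9.74 TPM in progeny (1.95). At mid neurula syt13-like.S had 4.66 TPM in explants and 0.692 TPM in progeny (1.74), and at early neurula it was under 2-fold (0.57). The row syt13.S had 0.00936 TPM in explants and 16.9 TPM in progeny at that stage. What the syt13-like rows encode is not given in the tables beyond their names.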
